A study of Mus musculus with 4 samples.

Results

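The regions described here are weak H3K27ac peaks that carried no PHF6 peak, in mouse pre-B acute lymphoblastic leukemia (ALL) cells. They were chosen by their measured height and overlaps, as the H3K27ac peaks on chromosomes 1 to 19 with a summit height below 35 that shared no base with a PHF6 peak or an H3K27me3 peak. Summit height is the whole-number pileup of reads that the authors deposited for the highest point of each peak. The rule found 4871 regions among the 32388 H3K27ac peaks of the series, of which 31732 lay on chromosomes 1 to 19. The members are 15.4% of these autosomal peaks (95% exact binomial interval 14.96 to 15.75%). Height and both overlaps selected the members, so these values are given as descriptions and support nothing.

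The study profiled PHF6, H3K27ac and H3K27me3 by chromatin immunoprecipitation and sequencing (ChIP-seq), with 1 library per antibody. An input DNA library without antibody also belongs to the series and was not analysed here. All libraries came from C57BL/6J pre-B leukemia cells that overexpress the BCR-ABL1 fusion kinase and are p19 null, so every group shares this genotype and no other genotype, treatment or time is compared. The labels do not say whether the culture was clonal. The lists hold no cells and no expression values, so the labelled cell type could not be checked against marker genes. The read totals behind the lists are unknown, and a region without a PHF6 peak is a region without a called peak, not one shown to lack the protein.

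Acetylation of lysine 27 of histone H3 is written mainly by the coactivators p300 and CBP and removed by histone deacetylases, and it marks active promoters and enhancers. PHF6 is a nuclear protein with PHD-type zinc fingers, encoded on the X chromosome and mutated in T-cell leukemias. In developing B cells the immunoglobulin heavy-chain locus is rearranged first and the light-chain loci later, and acetylation is among the marks of accessible chromatin at such loci. Trimethylation of the same lysine, written by Polycomb repressive complex 2, marks repressed chromatin.

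The rule reached the members in steps. Of the autosomal H3K27ac peaks, 15762 had a height below 35. PHF6 was present at 10822 of these, or 68.7% (67.9 to 69.4%), and absent from 4940. Another 69 of the peaks without PHF6 overlapped an H3K27me3 peak, which left the 4871 members. They covered 6.25 Mb, or 10.9% of the bases in autosomal H3K27ac peaks. Over all heights, 27.4% of autosomal H3K27ac peaks had neither PHF6 nor H3K27me3, a share that the rule itself uses and from which nothing is read.

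Peaks without PHF6 made up a larger share of the weak peaks toward the upper end of the height range. At a height of 14, 106 of 636 H3K27ac peaks (16.7%, 13.9 to 19.8%) were members. At a height of 20 the count was 353 of 1215 (29.1%, 26.5 to 31.7%), and at 25 it was 254 of 635 (40.0%, 36.2 to 43.9%). At a height of 34, just inside the limit, 139 of 272 peaks (51.1%, 45.0 to 57.2%) were members. Just outside it, at a height of 35, 126 of 271 peaks (46.5%, 40.4 to 52.6%) had neither PHF6 nor H3K27me3. The rise did not continue over the taller peaks as a whole. At heights of 35 or more, 3812 autosomal peaks had neither PHF6 nor H3K27me3 and 11473 had PHF6 without H3K27me3. Members at 34 had a median width of 1645 bp, a median score of 300.1 and a median distance of 12.8 kb to the nearest PHF6 summit, and the peaks at 35 had 1637 bp, 296.2 and 9.17 kb.

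**Figure D1:**
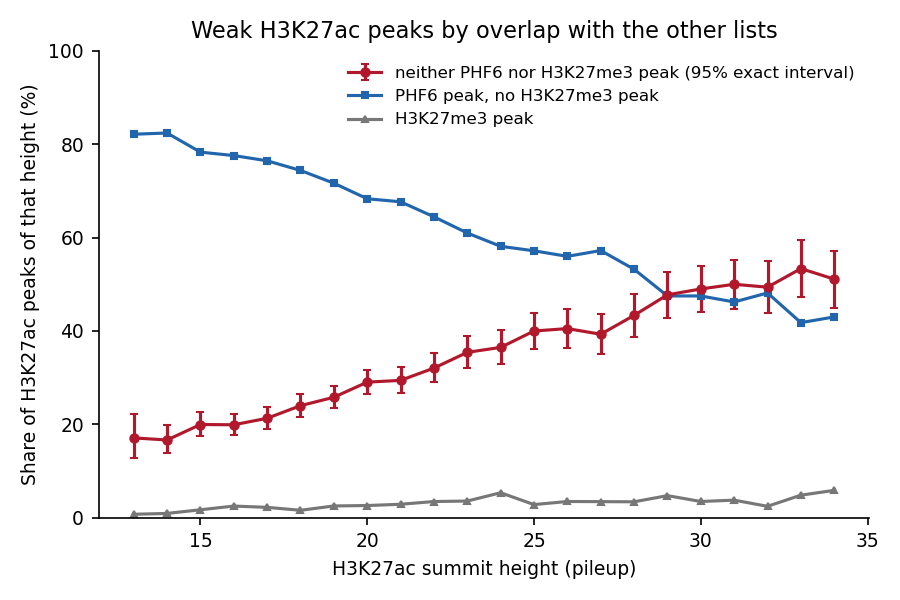
Share of autosomal H3K27ac peaks of each summit height (x axis, pileup) that had neither PHF6 nor H3K27me3 (red, with 95% exact binomial intervals), PHF6 without H3K27me3 (blue) or H3K27me3 (grey); heights 11 and 12, with 8 and 46 peaks, are left out. The red share is 16.7% at a height of 14 and 51.1% at 34, where it lies above the blue share.

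Most members were narrower and lower in score than the medians of all autosomal H3K27ac peaks, which were 1487 bp and 315. The height limit of the rule bears on both values, since they go with height, so nothing is read from this. The median height of the members was 23 (quartiles 19 and 28, range 11 to 34) and their median width 1128 bp (quartiles 924 and 1532). The score deposited with each peak, which starts at 60 in this list, had a median of 121 (quartiles 82.1 and 200.3) and reached 1270. Width and score went together more closely than height and score, with Spearman correlations of 0.80 and 0.62 across the 4871 members, and height and width had 0.40. All 3 values come from the same reads, so these correlations are descriptions only. Summits lay near the middle of their peaks, a median of 9.52% of the peak width from the centre (quartiles 4.32 and 16.6%).

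At similar heights the members were wider than weak peaks that held PHF6. The comparison class had 10439 peaks below a height of 35 with PHF6 and without H3K27me3, and its median height was lower, at 19. For heights of 30 to 34 the median width was 1525 bp in 823 members (95% interval of the median 1476 to 1578) and 1309 bp in 746 peaks with PHF6 (1251 to 1368). For heights of 25 to 29 it was 1272 bp (1236 to 1311) in members and 1145 bp (1120 to 1171) in peaks with PHF6. For heights of 11 to 19 it was 978 bp (964 to 996) in members and 915 bp (908 to 923) in peaks with PHF6. Width bears on the rule, since a wider peak has more room to meet a PHF6 peak. Scores differed in both directions: the median was 256 (236 to 274) in members and 225 (217 to 238) in peaks with PHF6 at heights of 30 to 34, and 113 (109 to 116) in members and 120.4 (117 to 123) in peaks with PHF6 at heights of 20 to 24.

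The 10 members with the highest scores were tall for their class and wide, with heights of 28 to 34 and widths of 2508 to 4466 bp. The first was on chromosome 12 at 116499646 to 116503034 (build mm9, band qF2), with a score of 1270, a height of 34 and a width of 3389 bp. Its nearest PHF6 summit was 20.3 kb away and the nearest H3K27ac summit of height 35 or more was 49.0 kb away. The second lay on chromosome 16 at 19024410 to 19028632 (qA3), with a score of 1167 and a height of 28. Its nearest taller summit was 126 kb away.

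The third was on chromosome 13 at 83709993 to 83713591 (qC3, score 1122), with the nearest PHF6 summit at 142 kb. The fourth, on chromosome 7 at 113582850 to 113587315 (qE3, score 1066), had a PHF6 summit at 5.10 kb but its nearest taller H3K27ac summit at 109.9 kb. The fifth, on chromosome 4 at 11684024 to 11687966 (qA1, score 1046), had a second wide member beside it, at 11688034 to 11692716 (height 32, score 867). The other 5 of the 10 scored from 904 to 1003 and lay on chromosomes 1, 5 and 10. Of these 10, 2 had a taller H3K27ac peak within 12500 bp of their edge, against 46.7% of all members and 45.4% of all autosomal H3K27ac peaks. These are 10 peaks picked by score, so nothing is read from the count.

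The widest member, on chromosome 13 at 32750287 to 32755461 (qA3.2), spanned 5175 bp with a height of 24 and a score of 770, and its nearest taller summit was 6.08 kb away. The 10 widest ranged from 3817 to 5175 bp in width and from 24 to 34 in height, and 3 of them were also among the 10 with the highest score. A taller peak stood within 12500 bp of 4 of these 10, near the 46.7% of all members.

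The question of where weak acetylation lies was first asked against stronger acetylation, meaning H3K27ac peaks with a height of at least 35. Such a neighbour was common: 2275 of 4871 (46.7%, 45.3 to 48.1%) had a taller peak within 12500 bp, measured edge to edge. Among all autosomal H3K27ac peaks 45.4% did, so the share of the members was near the background. The median distance to the nearest taller summit was 16.5 kb (quartiles 5.89 and 52.1). In the 2 comparison classes the shares were 46.1% (45.2 to 47.1%) for weak peaks with PHF6 and 47.8% (46.2 to 49.4%) for the 3812 taller peaks without PHF6 or H3K27me3. The members exceeded weak peaks with PHF6 by 0.59 percentage points, with a 95% Newcombe interval of -1.10 to 2.29, and no difference was detectable at this gap. Over all heights the members were higher than weak peaks with PHF6 at shorter gaps. Taller peaks without PHF6 or H3K27me3 were close to the members within 5 kb, at 29.07%. The members exceeded them there by 0.25 points (-1.68 to 2.17), so no difference was detectable. Within 1 kb the members exceeded these taller peaks by 2.33 points (1.05 to 3.5996). A taller peak lay within 5 kb of 29.3% (28.0 to 30.6%) of members and 26.8% (25.98 to 27.69%) of weak peaks with PHF6, against 26.7% of all autosomal H3K27ac peaks, a difference of 2.48 points (0.96 to 4.03). Within 1 kb the shares were 11.3% (10.5 to 12.3%) of members and 8.71% (8.17 to 9.26%) of weak peaks with PHF6, against 8.97% of all, a difference of 2.62 points (1.60 to 3.69).

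The same comparison within height ranges gave differences of opposite sign. At heights of 11 to 19, 44.6% (42.1 to 47.2%) of 1482 members had a taller peak within 12500 bp, against 36.2% (34.9 to 37.6%) of 5275 peaks with PHF6. That difference was 8.36 points (5.52 to 11.2). At heights of 20 to 24 the shares were 47.8% (45.2 to 50.4%) of members and 52.0% (50.2 to 53.8%) of peaks with PHF6, a difference of -4.18 points (-7.28 to -1.08). At heights of 25 to 29 the shares were 46.9% (43.9 to 49.9%) of members and 62.1% (59.5 to 64.6%) of peaks with PHF6, a difference of -15.2 points (-19.1 to -11.3). At heights of 30 to 34 they were 48.2% (44.8 to 51.7%) of members and 61.9% (58.3 to 65.4%) of peaks with PHF6, a difference of -13.7 points (-18.5 to -8.78). Within 1 kb the difference also went from positive to negative, at 5.69 points (4.08 to 7.45) for heights of 11 to 19 and -5.27 points (-8.69 to -1.90) for heights of 30 to 34. The turn was not at the same height. For heights of 20 to 24 the difference was 1.91 points (-0.03 to 3.95) within 1 kb and 0.20 points (-2.63 to 3.08) within 5 kb.

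Among members the distance to stronger acetylation hardly moved with height. Their median distance to the nearest taller summit was 17.8, 15.9, 16.4 and 15.2 kb in the 4 height ranges from low to high. In weak peaks with PHF6 it was 25.4, 13.4, 9.88 and 9.81 kb over the same ranges. The 95% interval of the median at heights of 30 to 34 was 13.8 to 18.0 kb in members and 8.62 to 10.98 kb in peaks with PHF6. Peaks are counted within 1 library and neighbouring peaks are not independent, so these intervals cover counting error only.

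**Figure D2:**
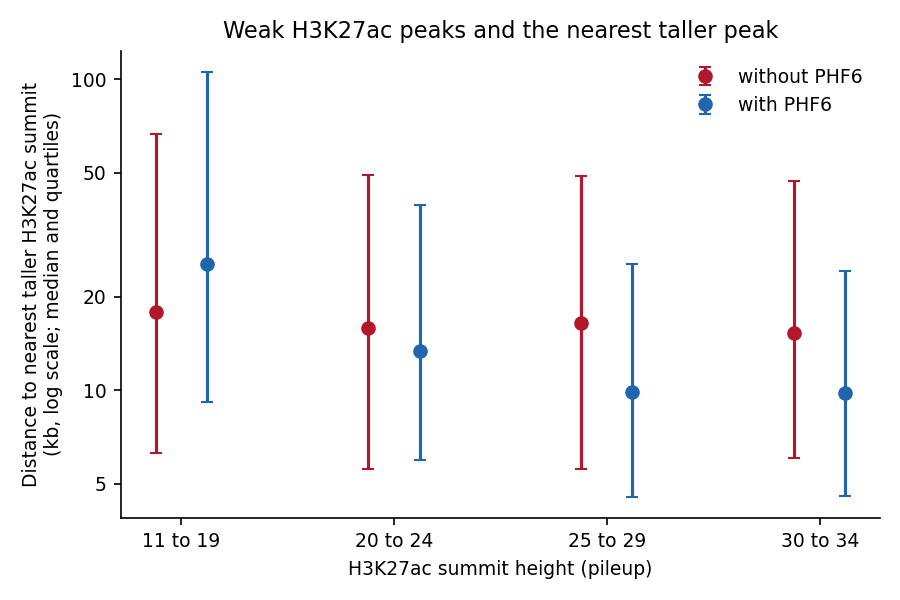
Distance in kb (log scale) from the summit of a weak H3K27ac peak to the nearest H3K27ac summit of height 35 or more, for peaks without PHF6 (red) and with PHF6 (blue) in 4 ranges of summit height; points are medians and bars run between the quartiles. The red medians stay between 15.2 and 17.8 kb, while the blue medians are 25.4 kb at the lowest heights and 9.81 kb at the highest.

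Members stood alone about as often as H3K27ac peaks in general. No other H3K27ac peak of any height lay within 12500 bp of 1741 members (35.7%, 34.4 to 37.1%), against 36.8% of all autosomal H3K27ac peaks. The share was 33.8% (32.9 to 34.7%) among weak peaks with PHF6 and 35.2% (33.7 to 36.7%) among taller peaks without PHF6. At heights of 30 to 34 it was 34.6% (31.4 to 38.0%) in members and 21.6% (18.7 to 24.7%) in weak peaks with PHF6, a difference of 13.05 points (8.62 to 17.4). At heights of 11 to 19 the order was the other way, with 37.0% (34.5 to 39.5%) in members and 42.8% (41.4 to 44.1%) in peaks with PHF6.

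The most remote members lay more than 1000 kb from any other H3K27ac summit. The farthest, on chromosome 14 at 110442040 to 110442997 (qE3, height 23, score 125), was 1632 kb from the next H3K27ac summit but 13.1 kb from a PHF6 summit. The second, on chromosome 17 at 59318583 to 59319613 (qD, height 26), was 1319 kb from H3K27ac and 134 kb from PHF6. The others of the first 5 were on chromosome 13 at 88390884 to 88391887 (qC3), chromosome 2 at 67216021 to 67217026 (qC1.3) and chromosome 4 at 90395251 to 90396218 (qC5). These 5 were narrow, between 958 and 1031 bp wide, and their scores ran from 96.2 to 179.

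Joined at gaps of up to 12500 bp, autosomal H3K27ac peaks formed 17052 runs, and 3929 of these held members. Of the 4871 members, 2445 (50.2%) were in runs that also held a taller H3K27ac peak, and 1741 were alone. A smaller group of 441 shared a run with other members only, in 201 such runs. The run with the most held 6 members over 29.8 kb on chromosome 16 at 49769658 to 49799450 (qB5), with heights of 14 to 29 and no PHF6 summit within 50.3 kb. Runs of 4 members and nothing else were found in band qA3 of chromosome 5 at 17510465 to 17520252, in band qA3.2 of chromosome 11 at 23582615 to 23596840, in band qC1 of chromosome 6 at 68150585 to 68170028 and in band qA of chromosome 19 at 15875747 to 15913636. The chromosome 5 run spanned 9.79 kb and was 108 kb from the nearest PHF6 summit, and the chromosome 19 run came within 2.04 kb of one.

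The second question was how far the members were from PHF6. The median distance from a member's summit to the nearest PHF6 summit was 10.3 kb (quartiles 3.94 and 26.3, 95% interval of the median 9.70 to 10.9). Taller peaks without PHF6 had a median of 10.3 kb as well (quartiles 4.77 and 25.1, interval 9.83 to 10.9). A PHF6 summit lay within 5 kb of 1521 members (31.2%, 29.9 to 32.5%) and of 26.3% (24.9 to 27.7%) of the taller peaks, a difference of 4.91 points (2.997 to 6.82). Width enters this distance, because no PHF6 peak may touch either class, and the taller peaks were wider, with a median of 1891 bp. Over both classes together the share was 29.1%. Within 50 kb the shares were 87.8% (86.8 to 88.7%) of members and 89.1% (88.0 to 90.0%) of taller peaks, with 88.3% over both.

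The PHF6 peaks nearest to members resembled those nearest to taller peaks without PHF6. The nearest PHF6 peak had a median height of 23 in both classes, with quartiles of 19 and 30 for members and 20 and 30 for taller peaks. It overlapped an H3K27ac peak of its own for 2303 members (47.3%, 45.9 to 48.7%) and for 48.6% (47.0 to 50.2%) of taller peaks, against 47.9% over both. The difference was -1.30 points (-3.42 to 0.81). Of all autosomal PHF6 peaks, 30.3% overlapped H3K27ac. This share counts PHF6 peaks and the shares above count H3K27ac peaks, so it is not a background for them.

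H3K27me3 peaks were sparse around the members. An H3K27me3 summit lay within 50 kb of 1120 members (23.0%, 21.8 to 24.2%), against 32.7% of all autosomal H3K27ac peaks, a share that includes peaks overlapping H3K27me3. It was 29.8% (28.9 to 30.7%) for weak peaks with PHF6 and 27.8% (26.4 to 29.2%) for taller peaks without PHF6, neither of which overlapped H3K27me3. The difference was -6.82 points (-8.28 to -5.33) from weak peaks with PHF6 and -4.79 points (-6.64 to -2.94) from taller peaks without PHF6. Their median distance to the nearest H3K27me3 summit was 142 kb (136 to 148), against 110.1 kb (107 to 113) for weak peaks with PHF6.

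Peaks without PHF6 lay next to one another. Of the 9733 H3K27ac peaks that came directly before or after a member on its chromosome, 4339 (44.6%, 43.6 to 45.6%) also had neither PHF6 nor H3K27me3, against 27.4% of all autosomal H3K27ac peaks. Of the same 9733, 2554 (26.2%, 25.4 to 27.1%) were members themselves, against 15.4% of all autosomal H3K27ac peaks. Around weak peaks with PHF6 these shares were 16.8% (16.3 to 17.3%) and 9.58% (9.19 to 9.99%). The difference in the first share was 27.8 points (26.6 to 28.9). Taller peaks without PHF6 had a similar surrounding, with 42.7% (41.6 to 43.8%) of their 7616 adjacent peaks lacking PHF6 and H3K27me3. The share around members was higher by 1.89 points (0.41 to 3.38). When only adjacent peaks within 12500 bp were counted, the share was 51.2% (49.7 to 52.7%) around members and 11.8% (11.22 to 12.46%) around weak peaks with PHF6. Each pair of adjacent members is counted from both sides.

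**Figure D3:**
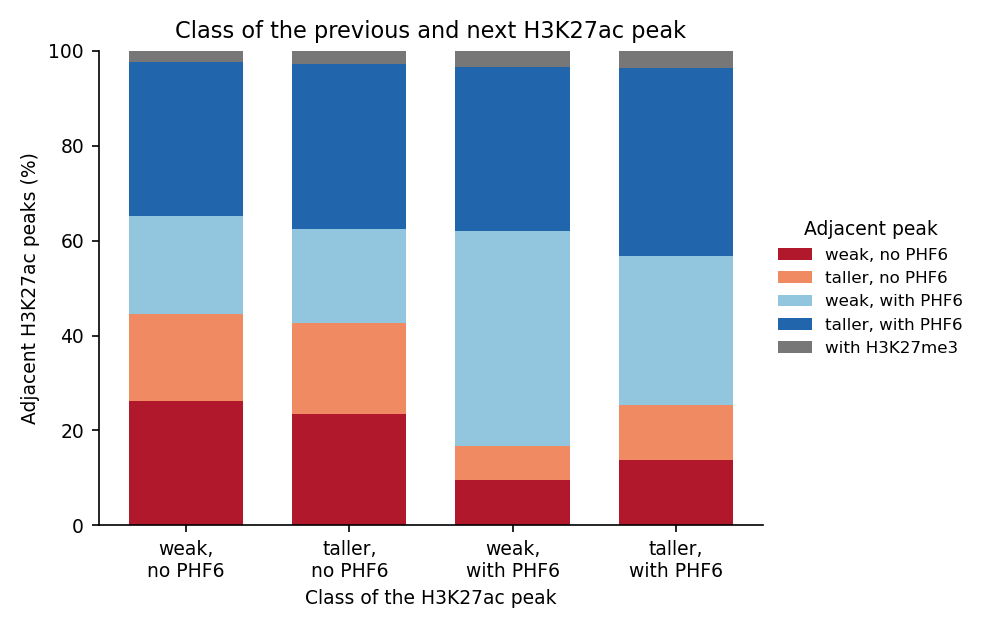
Class of the H3K27ac peaks directly before and after each peak on its chromosome (percent of adjacent peaks, y axis), for 4 classes of peaks (x axis). Orange and red together, the adjacent peaks without PHF6 or H3K27me3, make up 44.6% around weak peaks without PHF6 and 16.8% around weak peaks with PHF6.

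Across the chromosomes the members averaged 1.97 per Mb. They were densest on chromosome 19, with 175 members or 2.85 per Mb (95% exact Poisson interval 2.45 to 3.31), and sparsest on chromosome 8, with 196 or 1.49 per Mb (1.29 to 1.71). Members per Mb went with H3K27ac peaks per Mb, with Pearson's r of 0.61 over 19 chromosomes. The share of a chromosome's H3K27ac peaks that were members gave another order. On chromosome 19 this share was 15.9% (175 of 1102, 13.8 to 18.2%), near the 15.4% of all autosomal H3K27ac peaks. The share was highest on chromosomes 13 (265 of 1211, 21.9%, 19.6 to 24.3%), 1 (21.4%) and 3 (20.3%), and lowest on chromosomes 8 (196 of 1762, 11.1%, 9.69 to 12.7%), 7 (11.3%) and 11 (11.4%). Chromosomes with more PHF6 peaks per Mb had lower shares, with Pearson's r of -0.89 and Spearman's rho of -0.88 over 19 chromosomes. The rule removes peaks that meet PHF6, so this relation is partly set by it. The members' median height, which the rule limits, was 22 to 24 on all 19 chromosomes, and their median width ran from 1059 bp on chromosome 17 to 1192 bp on chromosomes 16 and 19. Their median distance to PHF6 varied more, from 6.46 kb on chromosome 4 to 17.4 kb on chromosome 3.

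**Figure D4:**
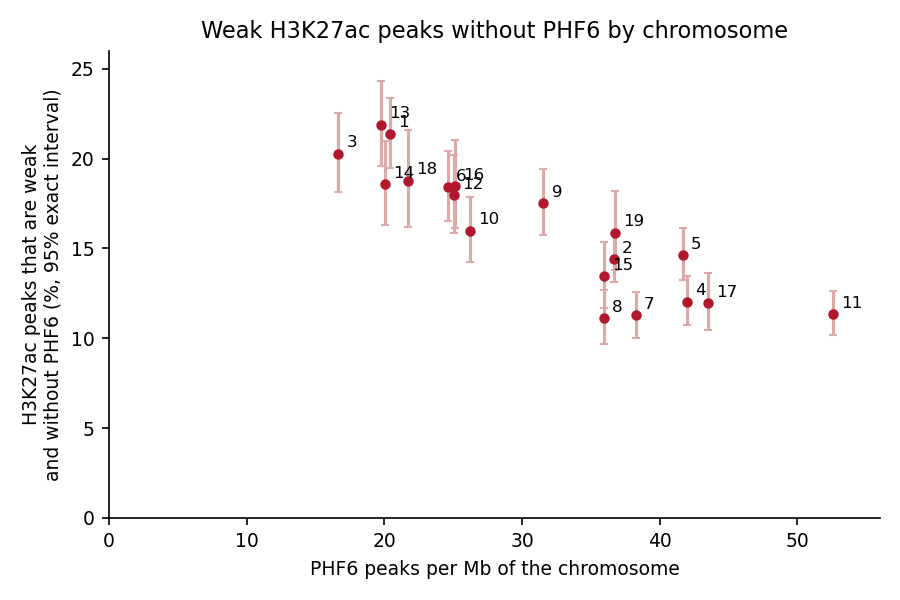
Percent of each autosome's H3K27ac peaks that were weak and had neither PHF6 nor H3K27me3 (y axis, with 95% exact binomial intervals) against PHF6 peaks per Mb (x axis); each point is 1 chromosome, labelled by its number. Chromosomes 13, 1 and 3, with 16.7 to 20.4 PHF6 peaks per Mb, have the highest shares, and chromosome 11, with 52.6, has one of the 3 lowest.

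Cytogenetic bands are a coarse guide to gene density, since light bands are gene-rich and the darkest bands gene-poor. Light bands held 2255 members (46.3%, 44.9 to 47.7%), against 49.9% of all autosomal H3K27ac peaks and 41.2% of the autosomal length. They held 52.9% (52.0 to 53.9%) of weak peaks with PHF6, a difference of -6.64 points (-8.33 to -4.94). Taller peaks without PHF6 were at 45.2% (43.6 to 46.8%), a difference of 1.07 points (-1.04 to 3.18). The darkest bands held 1140 members (23.4%, 22.2 to 24.6%), 17.9% of weak peaks with PHF6 and 23.0% of taller peaks without PHF6, against 19.5% of all autosomal H3K27ac peaks and 31.2% of the length. The light-band difference from weak peaks with PHF6 had the same sign in each of the 4 height ranges, from -6.32 to -9.60 points.

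Band qF2 of chromosome 12 held the highest share of members of the 263 bands with at least 30 H3K27ac peaks. There 40 of 68 H3K27ac peaks (58.8%, 46.2 to 70.6%) were members and 7 were taller peaks without PHF6, while 11 weak and 9 taller peaks held PHF6 without H3K27me3. The median over the 263 bands was 17.5%. The next bands were qC3.1 of chromosome 16 (13 of 30, 43.3%, 25.5 to 62.6%), qA2 of chromosome 10 (16 of 38, 42.1%, 26.3 to 59.2%) and qB1.1 of chromosome 11 (25 of 61, 41.0%, 28.6 to 54.3%), whose intervals overlap that of chromosome 12.

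Members were counted in fixed windows of 1 Mb, a division chosen after values had been seen. Of 2202 windows with an H3K27ac peak, 1524 held a member, with a median of 2 members in these, and 43 windows held 10 or more. The window from 68 to 69 Mb of chromosome 6 (qC1) held the most. It had 18 members among 24 H3K27ac peaks, together with 4 weak peaks with PHF6 and 2 taller peaks without it, and 15 PHF6 peaks. The window from 116 to 117 Mb of chromosome 12 (qF2) held 16 members and 3 taller peaks without PHF6, so none of its 19 H3K27ac peaks met PHF6, although 9 PHF6 peaks lay elsewhere in it. Among the 159 windows with 19 to 24 H3K27ac peaks, the median number of PHF6 peaks was 39. Among windows with a member it was 22. Both windows were picked for their members, which the rule keeps free of PHF6, so nothing is read from their PHF6 counts.

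As background, the mouse immunoglobulin kappa locus maps to band C1 of chromosome 6, the heavy-chain locus to the F bands at the end of chromosome 12, and the lambda locus to band A3 of chromosome 16, where the member with the second highest score lay. Gene positions on mm9 were not used here, so no member was placed in or outside a gene. The labels do not say how reads matching several places were treated, which bears on loci built of similar segments.

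On chromosome 6 the 18 members had heights of 13 to 34 with a median of 19, and followed one another at a median spacing of 46.7 kb (1.07 to 194 kb). The tallest were at 68581313 to 68583404, 68629017 to 68631246 and 68833132 to 68835995, each with a height of 34 and with scores of 314, 500.3 and 903. Their median width of 1100 bp and median score of 121 were close to those of all members. Their PHF6 distances ran from 0.987 to 67.5 kb with a median of 26.2 kb, and none of the 18 had a taller H3K27ac peak within 12500 bp. On chromosome 12 the 16 members had heights of 16 to 34 with a median of 24.5, a median width of 1434 bp, a median score of 185 and a median spacing of 34.8 kb (3.01 to 149 kb). Their PHF6 distances ran from 16.4 to 162 kb with a median of 60.3 kb, against 10.3 kb for all members, and 2 of the 16 had a taller peak within 12500 bp. Both windows were picked for their members, so these distances are descriptions only.

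Both windows had neighbours with members. On chromosome 12 the windows from 115 to 116 Mb and from 117 to 118 Mb held 8 members among 15 H3K27ac peaks and 7 among 14, with 10 and 15 PHF6 peaks. Beyond them the sides differed. From 114 to 115 Mb there were 2 members among 59 H3K27ac peaks, with 122 PHF6 peaks. On the other side H3K27ac peaks were few. From 118 to 119 Mb there were 2 members among 7 H3K27ac peaks, with 20 PHF6 peaks. From 119 to 120 Mb there were 4 among 7, with 13 PHF6 peaks. On chromosome 6 the windows from 69 to 70 Mb and from 70 to 71 Mb held 6 members among 10 H3K27ac peaks and 9 among 16, and the window from 67 to 68 Mb held 1 among 4.

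Other windows rich in members were on chromosome 11 from 44 to 45 Mb (15 members among 25 H3K27ac peaks), chromosome 6 from 99 to 100 Mb (15 among 28), chromosome 7 from 128 to 129 Mb (14 among 23) and chromosome 10 from 17 to 18 Mb (13 among 22). These had between 2 and 7 taller peaks without PHF6 as well, and between 3 and 5 taller peaks with PHF6. Windows with more PHF6 also held many. Chromosome 2 from 90 to 91 Mb had 15 members among 44 H3K27ac peaks, with 10 weak and 14 taller peaks with PHF6 and 56 PHF6 peaks in all. Another was chromosome 4 from 149 to 150 Mb, with 14 members among 70 H3K27ac peaks and 148 PHF6 peaks. The windows on chromosomes 11, 6, 7 and 10 held 17, 19, 32 and 12 PHF6 peaks. A high count of members therefore occurred over a wide range of PHF6 counts, but the shares differed. Members were 53.6 to 60.9% of the H3K27ac peaks in the windows on chromosomes 11, 6, 7 and 10. In the chromosome 2 window they were 34.1%. In the chromosome 4 window the 14 of 70 were nearer to the 15.4% of all autosomal H3K27ac peaks. That count came with many H3K27ac peaks and is not read as an excess of members.

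**Figure D5:**
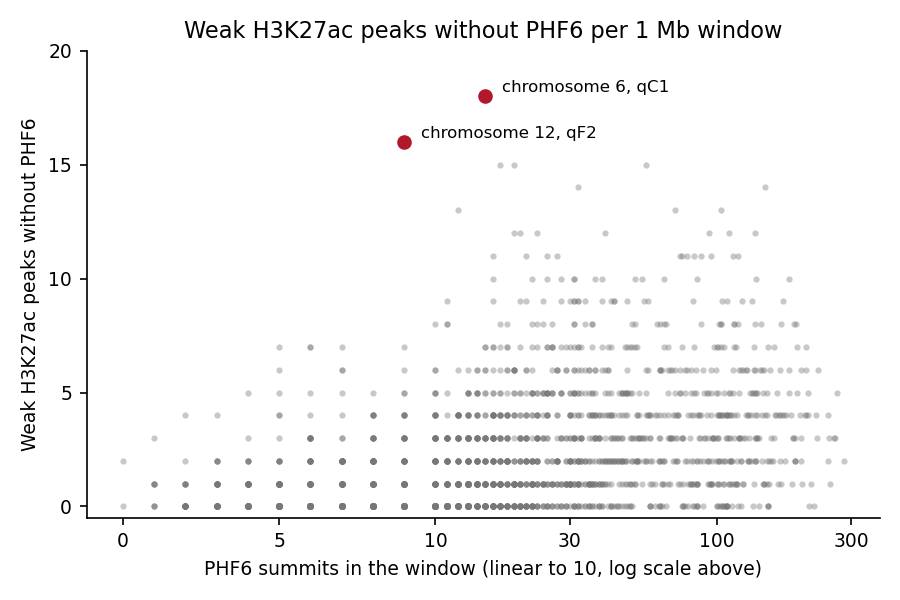
Number of weak H3K27ac peaks without PHF6 (y axis) against the number of PHF6 summits (x axis, linear to 10 and log scale above) in each 1 Mb window that held an H3K27ac peak; grey points are windows and the 2 red points are those with the most members. The red windows, with 18 and 16 members, held 15 and 9 PHF6 summits. They were picked for their members, which the rule keeps free of PHF6 peaks.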

How the data were processed

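ChIP-seq peak lists for PHF6, H3K27ac and H3K27me3, 1 library each, were used as deposited. Per the submitters' processing notes, the tools were MACS 1.4.0, Bowtie2 and SAMtools and the build was mm9; their roles and options, and whether input served as control, are not given in the sources used here. The deposited list names carry a threshold of 1e-6, and those of PHF6 and H3K27ac are marked as called without local lambda while that of H3K27me3 is not. The authors deposited a score per peak and, per summit, a signal that is a whole-number pileup height, not scaled between libraries. Both are the authors' values. No list was described as pooled, and depth is unknown.

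Peaks were joined to summits by name, and coordinates are 1-based. Overlap meant at least 1 shared base. Shares carry 95% exact binomial intervals, medians carry order-statistic intervals and differences carry Newcombe intervals. They cover counting error within 1 library, so no p-value was computed. Bands came from circlize 0.4.16 under R 4.3.3. Other steps used scipy 1.17.1, pandas 2.3.3 and numpy 2.4.6 under Python 3.11.15, with plots from matplotlib 3.10.9. The overlap and distance routines were tested on simulated lists.

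Regions named singly are the 10 members with the highest score, the 10 widest, the 5 runs with the most members and no taller or PHF6 peak, and the 5 farthest from other H3K27ac peaks. Bands and windows were singled out after their values were seen. The members and lists were chosen with earlier results of these data known. Start sites and sequence motifs were not analysed here, since the gene table at hand is of another build.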

Additional observations from a re-analysis of the deposited data

How the results depend on the processing

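With overlap defined as 50% of the shorter peak or by summits, each share and median for which that setting was run stayed within its counting interval. With no PHF6 or H3K27me3 peak allowed within 1 kb, members were 13.5% of autosomal H3K27ac peaks (15.4% as reported), their median PHF6 distance was 12.95 kb (10.3 kb), 43.3% (46.7%) had a taller peak within 12500 bp and 39.1% (35.7%) were alone. A height below 30 gave 12.8% and a median width of 1072 bp (1128 bp), and a height below 25 gave 2967 members (4871), 9.35% and 1025 bp. A score of at least 100 in all 3 lists gave 13.8%, 1365 bp, 16.3 kb, 40.7% alone and 50.1% of adjacent peaks without PHF6 (44.6%). With that score for PHF6 alone these were 18.7%, 1081 bp, 14.5 kb and 50.6% of adjacent peaks. A gap of 5 kb gave 29.3% near a taller peak and 52.7% alone, and a gap of 25 kb gave 61.8% and 22.3%. PHF6 distance between peak edges was 8.96 kb. Fewer or other peaks enter by construction, and the cause of these moves was not tested.

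The signs of 4 contrasts with weak peaks holding PHF6 held in each alternative run for them, with intervals off 0: 27.5 to 31.3 points for adjacent peaks without PHF6, -7.88 to -6.09 for light bands, 4.39 to 9.44 for a nearby taller peak at heights below 20, and -18.5 to -13.7 at heights of 25 and over. Other gaps were not among these alternatives. At a gap of 5 kb the difference for a nearby taller peak was 7.39 points (4.93 to 9.93) at heights of 11 to 19. It was -8.74 points (-12.4 to -4.96) at heights of 25 to 29 and -10.8 points (-15.5 to -6.12) at heights of 30 to 34. These contrasts were not run at a gap of 25 kb. Results on adjacent peaks and on band qF2, the setting without the 2 richest windows and the moved windows were added after seeing the data. Moving the 1 Mb windows by 0.5 Mb changed their order: chromosome 12 from 115.5 to 116.5 Mb came first with 17 members, chromosome 2 from 89.5 to 90.5 Mb had 15, and chromosome 6 from 68.5 to 69.5 Mb had 14 (18 at 68 to 69 Mb). In band qF2 of chromosome 12 the share of members was 49.0% without those windows and 35.3% at heights below 25. No paired analysis was possible because no antibody was used on a second library. Start-site and motif alternatives were not run. Depth is unknown, so weak PHF6 binding below the called threshold cannot be told apart from its absence.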
